A study of Macaca mulatta and Mus musculus with 5 samples.

Results

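The cells described here are B-lineage cells of the macaque meninges that carried transcripts of the recombination-activating genes and none of the proliferation gene MKI67. A cell was taken when its barcode had at least 300 detected genes and at least 1 UMI (unique molecular identifier, a counted transcript) of RAG1 or RAG2. It also had to have 0 UMIs of MKI67, of DNTT, the terminal transferase of pro-B cells, of CD3E, a T-cell receptor subunit, and of NKG7, a granule gene of cytotoxic lymphocytes. The rule found 362 cells among 8376 meningeal cells, 197 in channel 1 and 165 in channel 2. They are called RAG-positive cells below.

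The study used 10x 3′-end single-cell RNA sequencing on meninges, the membranes around the brain, and on spleen. The macaque samples were female Chinese rhesus macaques of 4 to 8 years, untreated as far as the labels say, with 2 channels of meninges and 2 of spleen and 8000 cells loaded per channel. The macaque sort is written as CD45–CD11b–CD3–, and the labels do not say whether a dash joins the names or marks absence. A single mouse library pooled meninges of male C57BL/6 mice of 2, 21 and 48 days.

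B cells assemble their antigen receptor genes by cutting and rejoining DNA, and the RAG1 and RAG2 proteins make the cuts. A large pre-B cell has a finished μ heavy chain (IGHM), pairs it with a surrogate light chain that includes VPREB1, and divides. A small pre-B cell has left the cell cycle and uses RAG again to assemble its light chain, after which it becomes an immature and then a mature B cell with surface proteins such as CD20 (MS4A1) and CD23 (FCER2).

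The meningeal channels held 19013965 and 19760153 UMIs in cells that passed the gene minimum. The channels were alike: among 1741 genes at 100 CPM or more in the RAG-positive cells, 8 differed over 2-fold between the channels (CFD, DDIT4, DNAJB1, PSAP, S100A4, S100A6, SOD2 and an unnamed identifier). Pairs of macaque libraries shared 4 to 11 barcode sequences. No RAG-positive barcode occurred in both meningeal channels, and 3 also occurred in a spleen channel. Mitochondrial UMIs were at most 6.29% of any meningeal cell. Whether the 2 channels came from separate animals is not in the labels. The p-values therefore reflect variation between 2 channels only, and that variation may be technical.

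RAG-positive cells made up 4.84% of the cells of channel 1 (exact 95% interval 4.20 to 5.55%) and 3.83% of channel 2 (3.28 to 4.45%), a mean of 4.34% ± 0.716 (SD, n = 2). The intervals here cover counting error only. In all, 463 cells had a RAG UMI and 101 of them were left out by the other conditions: 58 had MKI67, 35 DNTT, 24 NKG7 and 8 CD3E UMIs, and some had several. Just inside the threshold, 161 cells rested on 1 RAG UMI, 88 had 2 and 113 had 3 or more, with a highest value of 11. Just outside, 4 cells of channel 1 and 0 of channel 2 were left out with exactly 1 MKI67 UMI. The fewest genes in a RAG-positive cell were 334 in channel 1 and 471 in channel 2, and no barcode below 300 genes had a RAG UMI.

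RAG1 was found without RAG2 in 208 cells, RAG2 without RAG1 in 70, and both in 84. These counts depend on depth: after each cell was thinned to 1000 UMIs, which left out 8 and 3 shallower cells, the share with RAG1 went from 79.7% and 81.8% to 43.9% and 50.6%. In the NKG7-positive cells of the same channels, which should lack the gene and had medians of 3798 and 3784 UMIs, the thinned RAG1 share was 0.361% and 0.414%. The rule chose the RAG-positive cells by these UMIs, so the contrast was fixed in advance. It cannot show how many of their RAG UMIs are background. RAG1 and RAG2 are not listed in the spleen tables, which hold genes found in 3 or more cells, and the rule gave no spleen cell.

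The RAG-positive cells had fewer UMIs per cell than the classes they were compared with. Their median was 2809 UMIs per cell in channel 1 and 2652 in channel 2, with 1355 and 1284 detected genes. Other meningeal B cells, defined by MS4A1 UMIs and 0 UMIs of the 6 genes of the rule, numbered 1447 and 1598 with medians of 4635 and 4674.5 UMIs. Cycling early B cells, with MKI67 and either VPREB1 or DNTT, numbered 63 and 51 with medians of 12122 and 12300 UMIs, and 26 and 22 of them had a RAG UMI. The last class had UMIs of both ARPP21 and VPREB3 but none of the rule's genes. These RAG-undetected ARPP21 VPREB3 cells numbered 223 and 231, with medians of 3510 and 3400 UMIs, and 99 and 115 of them also carried MS4A1. UMIs per cell are not cell size, which was not measured. Every class was chosen by UMIs found or not found, which itself depends on depth. The part of that choice in these medians was not tested.

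The marker genes given with the label were high in these cells. Levels are UMIs per 1000000 UMIs of the class sum in each channel (CPM), and since only 3′ ends were counted they are not divided by gene length. The values of the 7 markers are a description with no test, because RAG1 and RAG2 chose the cells and the others came with the label. RAG1, which with RAG2 forms the cutting enzyme, stood at 546 and 601 CPM in channels 1 and 2, and RAG2 at 171 and 176 CPM. In cycling early B cells RAG1 was at 21.6 and 40.3 CPM and RAG2 at 48.7 and 38.9 CPM.

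ARPP21, a cAMP-regulated phosphoprotein gene whose intron holds a microRNA, was at 2322 and 2173 CPM, against 44.4 and 47.8 in other meningeal B cells. AKAP12, a scaffold for protein kinase A, was at 3681 and 3367 CPM against 170 and 183. APOD, a lipid-binding apolipoprotein, was at 1684 and 1843 CPM against 2.86 and 10.7. For each of these genes both channels of the RAG-positive cells were above both of the others.

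VPREB3, a chaperone-like protein of the pre-B cell receptor, was at 788 and 937 CPM against 122 and 122 in other meningeal B cells. IGHM was at 6400 and 6366 CPM against 2410 and 2956. On the log2 scale the RAG-positive cells exceeded other meningeal B cells by 7.70 for APOD, 5.28 for ARPP21, 4.00 for AKAP12, 2.49 for VPREB3 and 0.93 for IGHM. In spleen cells chosen like the other meningeal B cells (4436 and 5227 cells), the markers were at 14.0 and 11.3 CPM for ARPP21, 19.9 and 19.4 for AKAP12, 0.82 and 3.15 for APOD and 97.9 and 97.4 for VPREB3.

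**Figure D1:**
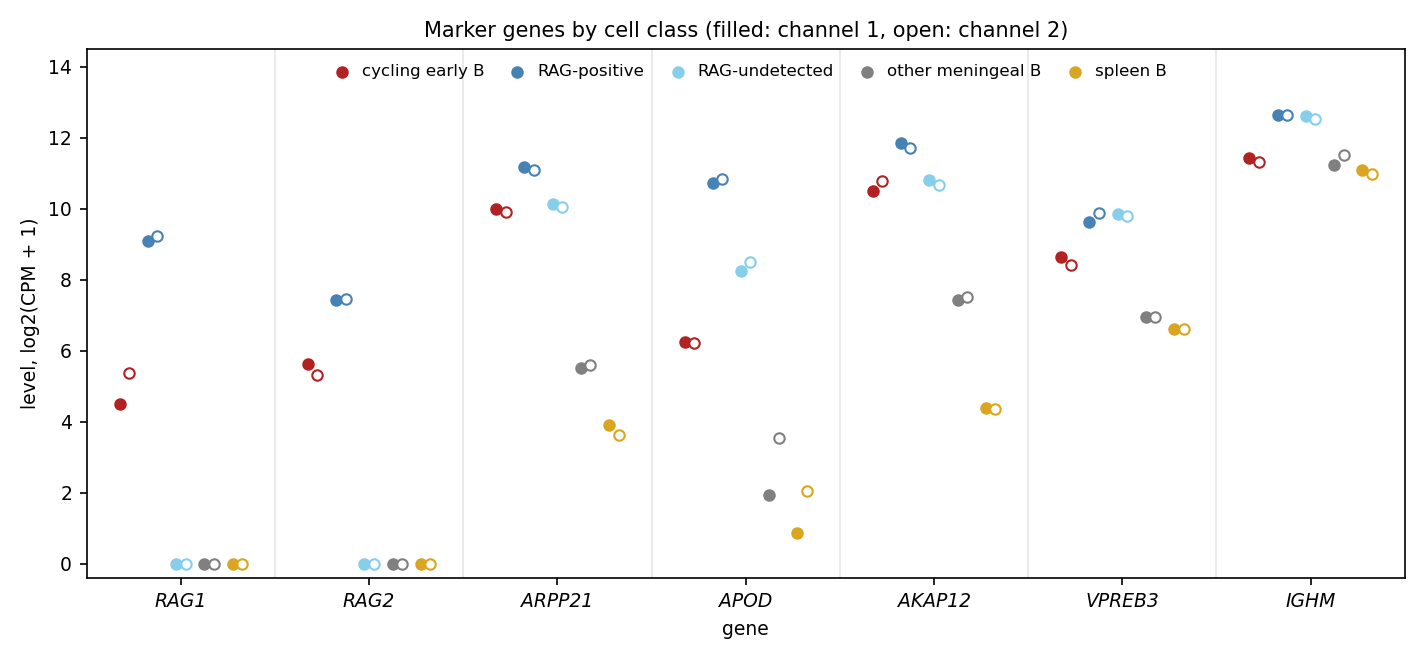
Levels of the 7 marker genes, as log2(CPM + 1) on the y axis, in 5 cell classes on the x axis; filled points are channel 1 and open points channel 2, each the summed UMIs of that class. APOD is at 1684 and 1843 CPM in the RAG-positive cells, 303 and 362 in RAG-undetected ARPP21 VPREB3 cells, and 74.7 and 73.5 in cycling early B cells.

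Most single cells carried several markers. Of the 5 markers outside the rule, all 5 were found in 100 cells of channel 1 (50.8%) and 92 of channel 2 (55.8%), 4 in 72 and 56, and 3 in 20 and 15. In channel 1, 1 cell had none of them. ARPP21 was detected in 94.9% and 97.6% of RAG-positive cells, AKAP12 in 97.0% and 95.8%, and APOD in 67.0% and 66.7%. At 1000 UMIs per cell the APOD share was 55.6% and 54.3%, against 1.23% and 0.414% in NKG7-positive cells.

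Cells with and without APOD were alike in depth in channel 2 (medians of 2652 and 2654 UMIs) and differed little in channel 1 (2803.5 and 3015). ARPP21 was at 2534 and 2221 CPM in the 132 and 110 cells with APOD, and at 1890 and 2069 CPM in the 65 and 55 without. These splits are descriptions of cells that share a library and have no test.

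MS4A1 itself was detected in 16 and 18 cells, 8.12% and 10.9%. At equal depth the share was 3.17% (exact interval 1.17 to 6.78%) and 6.79% (3.44 to 11.8%). These shares were below the 6.79% and 7.45% of NKG7-positive cells and above the 1.59% and 3.92% of cycling early B cells. The part of background in the MS4A1 share of RAG-positive cells was not tested. The UMIs were uneven: 1 cell of channel 2 held 19 of the 56 MS4A1 UMIs there, while the highest cell of channel 1 had 4. The cells with an MS4A1 UMI had less ARPP21 (1477 and 1484 CPM against 2408 and 2268) and less APOD (938 and 1134 against 1760 and 1940) than those without, in both channels.

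FOS, an immediate early gene, was at 493 and 688 CPM in cells with RAG1 alone and at 130 and 206 CPM in cells with RAG2 alone. The share of cells with a FOS UMI was 27.3% against 15% in channel 1 but 31.6% against 33.3% in channel 2. APOD was at 1954 and 2220 CPM in the RAG1-only cells and 1212 and 1141 CPM in the RAG2-only cells. The RAG2-only cells, 40 and 30 in number, were deeper, with medians of 3567 and 3654 UMIs against 2740.5 and 2541. The part of depth in these differences was not tested.

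The genes of highest level included AKAP12 and IGHM, given above, and 10 others. CD74, the invariant chain of class II molecules, reached 7020 and 7220 CPM, B2M, the light chain of class I, 6683 and 6394, and MAMU-DRA, a class II chain, 6582 and 6512. HSP90AA1, a chaperone, was at 5144 and 4795 CPM, TPT1 at 5006 and 5169, EEF1A1, a translation elongation factor, at 4402 and 4627, and FAU, which encodes a ribosomal fusion protein, at 4461 and 4452. BTG1, an antiproliferative gene, was at 3906 and 3920 CPM, the histone gene H3-5 at 3533 and 3394, and TMSB10, an actin-binding protein, at 3269 and 3163. None of these genes differed over 2-fold between the channels.

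Against other meningeal B cells the RAG-positive cells had more transcripts of early B-lineage regulators and fewer of mature B-cell surface genes. UMIs were summed per channel and class and tested with edgeR across 7470 genes, with the channel as a block. In all, 3119 genes passed an adjusted p of 0.05 (41.8% of those tested), 1361 higher (18.2%) and 1758 lower (23.5%), and 3613 passed without adjustment. The direction of small differences depends on scaling: 43.6% of the calls were higher with trimmed-mean scaling and 67.5% with library size alone, where the median gene moved from -0.06 to 0.26 on the log2 scale. Without the filter on low counts 32.4% were higher. Ribosomal protein genes took 18.0% and 19.1% of UMIs in the RAG-positive cells and 26.2% and 26.1% in other meningeal B cells, and the part of this in the scaling was not tested.

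MYB, a transcription factor of progenitors, was at 244 and 261 CPM against 7.29 and 7.04 in other meningeal B cells, a rise of 4.80 ± 0.17 (log2, SE; edgeR adjusted p = 4.19e-17). VPREB1 was at 272 and 281 CPM against 13.9 and 10.0, a rise of 4.21 ± 0.15 (edgeR adjusted p = 8.37e-17). Both channels of the RAG-positive cells were above both of the others for each gene. RASSF4, a Ras-association domain gene, was at 625 and 666 CPM against 26.6 and 31.8 and rose by 4.14 ± 0.12. DEPP1, a target of FOXO factors, was at 2190 and 2387 CPM against 104 and 121 and rose by 4.02 ± 0.10 (edgeR adjusted p = 7.4e-20). ITGA6, the α6 integrin chain of laminin receptors, was at 558 and 545 CPM against 38.7 and 33.0 and rose by 3.62 ± 0.11.

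The other named rises were PITPNM2 (4.45), RPRML (4.19), CECR2 (4.13), VMAC (3.33), PPP1R1B (3.32), the mitochondrial chaperone TRAP1 (3.25), the transcription factor LEF1 (3.22) and the linker histone H1-5 (3.07). All 8 had separate channels and levels of 91.1 to 324 CPM in the RAG-positive cells. H1-5 was higher still in cycling early B cells, at 989 and 762 CPM. A pair of identifiers without a symbol, singled out after their values were seen, had larger differences: ENSMMUG00000007341 at 1126 and 929 CPM against 5.29 and 8.86, and ENSMMUG00000000066 at 583 and 537 CPM against 2.29 and 7.95. Both were highest in cycling early B cells, at 2109 and 2068 CPM and at 1448 and 1607 CPM.

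Among the falls, GPR183, a receptor for oxysterols that positions activated B cells, was at 16.02 and 14.2 CPM against 887 and 950 and fell, with a log2 difference of -6.23 ± 0.22 (edgeR adjusted p = 6.22e-17). CD1C, which presents lipids, was at 9.61 and 10.1 CPM against 338 and 343 and fell by 5.43 ± 0.25. CD86, a costimulatory ligand for T cells, had 1 UMI in all RAG-positive cells against 157 and 156 CPM, a ratio of 175 (95% counting interval 31.3 to 6901). PLBD1, NEK6 and EDNRB had 0 UMIs. With a floor of 3 UMIs over the whole group they were at least 28.3-fold, 17.3-fold and 16.9-fold lower.

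ACP5, an acid phosphatase, had 2 UMIs and a ratio of 69.3 (19.2 to 573), FCRL5, an Fc receptor-like protein of mature B cells, 1 UMI and a ratio of 55.2 (9.87 to 2182), and SOCS3, a cytokine signal inhibitor, 2 UMIs and a ratio of 48.5 (13.4 to 401). KIFC1 with 1 UMI, LYSMD2 with 2 and ALOX5AP with 3 had ratios of 38.5 (6.88 to 1523), 36.3 (10.0 to 301) and 30.1 (10.3 to 146). The width of these intervals shows how little the depth fixes their size.

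**Figure D2:**
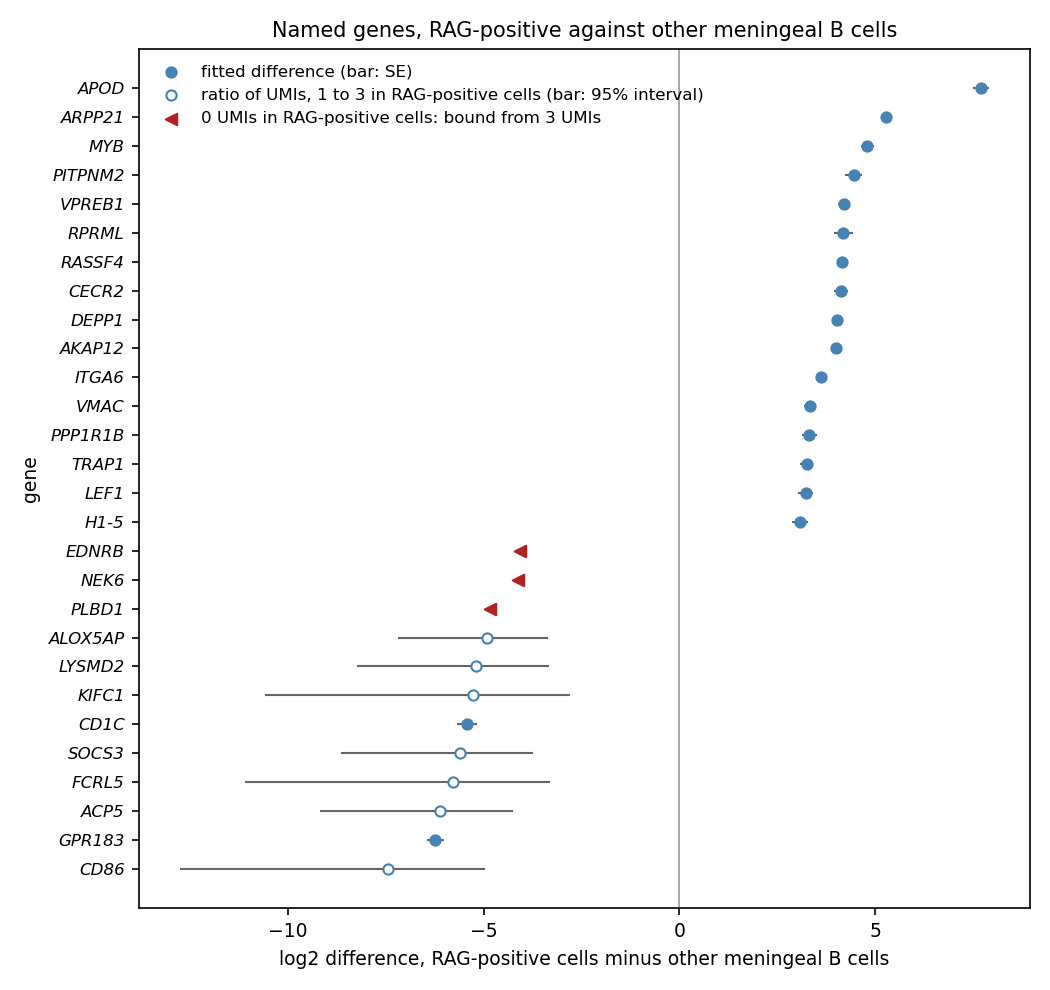
Log2 differences between RAG-positive cells and other meningeal B cells on the x axis for the largest rises and falls on the y axis; filled points are fitted differences with standard errors, open circles are ratios of UMIs with 95% counting intervals for genes with 1 to 3 UMIs in the RAG-positive cells, and red arrows are bounds for genes with 0. MYB lies at 4.80 and GPR183 at -6.23.

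Genes were then read by role, over lists of which only members past the low-count filter are counted. The lists were chosen with earlier results of these data known. Each count stands beside the share over all genes tested. That was 18.2% higher and 23.5% lower against other meningeal B cells, and 21.2% and 23.3% against cycling early B cells. For the pre-B cell receptor and surrogate light chain 4 genes could be tested, of which VPREB3 and IGHM are markers and are not counted. The other two, VPREB1 and CD79B, rose. CD79B, a signalling chain of the receptor, was at 2854 and 2968 CPM against 1255 and 1174 and rose by 0.94 ± 0.07 (edgeR adjusted p = 1.15e-10). The other genes of that list (IGLL1, IGLL5 and CD79A) and the light chain constant genes had no entry under these symbols in the macaque data. They could not be read here.

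Of the 21 genes that relay the receptor's signal, 10 rose and 10 fell, and their median difference was -0.23 beside -0.06 over all genes. With library size alone 10 rose and 7 fell. SYK, the kinase that binds the receptor chains first, was at 550 and 557 CPM against 168 and 160 and rose by 1.43 ± 0.10. FYN, a Src-family kinase, was at 75.3 and 83.0 CPM against 15.7 and 16.3 and rose by 1.98 ± 0.24. The adaptor BLNK (1.05), the kinases BTK (0.93) and PRKCB (1.08), the phosphatase INPP5D (1.30) and the coreceptor CD81 (0.97) rose as well.

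BANK1, a scaffold of mature B cells, was at 33.6 and 28.3 CPM against 387 and 353 and fell by 3.89 ± 0.18. SH3BP5, an inhibitor of BTK, fell by 2.24, the inhibitory receptor CD22 by 1.86 and the phosphatase PTPN6 by 1.50. LYN, at 607 and 605 CPM against 567 and 564, did not pass (difference -0.23), and its sign turned with library size alone.

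The joining of RAG-cut ends is done by non-homologous end joining. Of 13 tested genes 4 rose and 5 fell (median -0.07), and with library size alone 4 rose and 1 fell. Those 30.8% and 38.5% compare with 18.2% and 23.5% of all genes tested. POLM, a polymerase that fills gaps at the ends, was at 115 and 140 CPM against 20.6 and 22.4, a rise of 2.23 ± 0.20 (edgeR adjusted p = 1.36e-09). LIG4, the ligase, was at 52.9 and 60.7 CPM against 9.86 and 13.9 and rose by 1.95 ± 0.28. HMGB2, a DNA-bending cofactor of RAG, rose by 0.71. HMGB1 passed with a rise of 0.17 that was lost under 7 alternatives. ATM, the damage-signalling kinase, was at 33.6 and 44.5 CPM against 86.9 and 81.3 and fell by 1.46, and the end-binding kinase PRKDC fell by 0.54.

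Among 23 tested transcription factors of the B lineage 12 rose and 6 fell, with a median of 0.62 without ERG, which had 0 UMIs in the RAG-positive cells. SOX4, a factor of progenitors, was at 527 and 597 CPM against 51.4 and 66.6 and rose by 2.93 ± 0.11. BACH2, a repressor that acts at the pre-B checkpoint, was at 359 and 316 CPM against 37.2 and 40.7 and rose by 2.79 ± 0.14. TCF3, which encodes the E2A proteins, was at 524 and 535 CPM against 79.0 and 93.7 and rose by 2.29 ± 0.11. FOXO1, an activator of the RAG genes, was at 210 and 223 CPM against 67.2 and 65.5 and rose by 1.38 ± 0.14. IKZF2 (2.31) and IRF4 (1.09), a factor of light chain opening, also rose.

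For the identity factors PAX5 and EBF1 the call depended on the setting. PAX5 was at 119 and 87.1 CPM against 64.6 and 55.9, a rise of 0.45 ± 0.16 (edgeR adjusted p = 0.0276), which 6 alternatives lost, with edgeR or DESeq2 adjusted p from 0.0881 to 0.741. Among these, leaving out the RAG-positive cells of channel 1 gave 0.28 (edgeR adjusted p = 0.495). EBF1 was at 36.9 and 20.2 CPM against 14.3 and 14.3 and did not pass (0.70 ± 0.33, edgeR adjusted p = 0.0906), but passed at 1.02 with library size alone and at 1.04 without the RAG-positive cells of channel 2.

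MEF2C, a factor of B-cell activation, was at 62.5 and 62.8 CPM against 596 and 585 and fell by 3.56 ± 0.17. ID3, an inhibitor of E proteins, was at 70.5 and 81.0 CPM against 402 and 402 and fell by 2.74. IRF8 (-3.11), BCL11A (-2.12) and POU2F2 (-1.64) fell as well. Both channels of the RAG-positive cells were below both of the others for all 5.

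Receptors of progenitors were mixed. CD9, a tetraspanin, was at 1102 and 950 CPM against 316 and 326 (rise of 1.35 ± 0.09), and CD38, an ectoenzyme, at 828 and 741 CPM against 265 and 255 (1.26 ± 0.10). PTPRC, which encodes CD45, fell by 2.03 ± 0.11, at 247 and 227 CPM against 765 and 788. IL7R, the interleukin-7 receptor chain, was at 6.41 and 30.4 CPM, against 27.7 and 42.7 in other meningeal B cells and 58.4 and 83.5 in cycling early B cells. IL7R was detected in only 1.52% and 0.606% of the RAG-positive cells, so these levels and the differences below rest on very few cells. Its fall by 1.34 against other meningeal B cells was lost without the RAG-positive cells of channel 1 (-0.81, edgeR adjusted p = 0.101) and turned to a rise of 1.68 when the comparison was limited to FCER2-positive B cells. Without the cells that a doublet caller marked it was -3.48. CD34 and MME had 0 UMIs in both channels.

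Of 16 tested surface genes of mature B cells none rose and 15 fell, with a median of -3.13. Other meningeal B cells were chosen by MS4A1, also a mature surface gene, so the choice of cells touches this list. The part of that choice in the falls was not tested. FCER2, the CD23 gene, was at 30.4 and 18.2 CPM against 197 and 183 and fell by 3.26 ± 0.21. CR2, the CD21 gene (-4.39), the homing receptors CXCR5 (-4.10) and CCR7 (-3.92) and the hyaluronan receptor CD44 (-3.75) fell too. CD83, an activation marker, remained at 492 and 391 CPM against 1534 and 1643 and fell by 2.16. CD69, another activation marker, was at 1112 and 968 CPM against 851 and 952 and did not pass (-0.12), and its sign turned with library size alone.

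Class II genes were high in level and lower than in other meningeal B cells: 5 of 7 fell and 1 rose, with a median of -1.01. CD74 was at 11445 and 11459 CPM in other meningeal B cells and fell by 1.01 ± 0.05, and MAMU-DRA by 0.95. MAMU-DRB1, at 1327 and 1348 CPM against 4119 and 4120, fell by 1.95 ± 0.07. CIITA, the master regulator of class II, was at 175 and 130 CPM against 71.5 and 70.9 and rose by 0.78 ± 0.15. With library size alone 2 genes rose.

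Of 13 tested genes of migration and positioning 9 fell and CXCR4 alone rose (median -1.29); with library size alone 3 rose and 7 fell. CXCR4, the receptor for CXCL12 that holds B-cell precursors in their niche, was at 2464 and 2816 CPM against 667 and 693, a rise of 1.63 ± 0.08 (edgeR adjusted p = 8.8e-15). Its level was 1550 and 1522 CPM in cycling early B cells and 358 and 360 in spleen B cells, so both channels were highest in the RAG-positive cells. Besides GPR183, the integrin chain ITGB7 and the chemokine receptor CCR6 fell, with 2 UMIs each in the RAG-positive cells and ratios of 21.1 (5.80 to 174) and 20.3 (5.58 to 168).

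Survival genes of the BCL2 family changed in opposite directions. BCL2L1, which encodes BCL-xL, was at 107 and 93.1 CPM against 16.3 and 18.5 and rose by 2.21 ± 0.21. BCL2 was at 9.61 and 12.1 CPM against 89.6 and 107 and fell by 3.50 ± 0.29. BCL2A1 fell by 3.17 and MCL1 by 0.75, while the death effector BAK1 rose by 0.69. In the whole list 2 of 13 rose and 7 fell (median -0.75), and 4 rose and 5 fell with library size alone.

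Genes of cycle exit and growth control gave 4 rises and 3 falls among 14 (median 0.17), and 8 and 3 with library size alone. Those 28.6% and 21.4% compare with 18.2% and 23.5% of all genes tested. BTG1 rose by 0.52, RB1, the retinoblastoma protein, by 0.56, BCL6 by 0.78 and BTG2 by 0.23. MYC was at 0 and 14.2 CPM against 106 and 118 and fell by 4.47 ± 0.44, and CDKN1A, the p21 inhibitor, fell by 3.18. Immediate early genes, which react within minutes to stimulation and to tissue handling, gave 3 rises and 16 falls among 19 (median -1.42). FOS was at 391 and 533 CPM, against 1344 and 1232 in other meningeal B cells and 26.0 and 44.4 in spleen B cells. EGR2 fell by 5.03, NR4A2 by 4.29 and the phosphatase DUSP2 by 4.28. JUN (0.39), JUND (0.95) and KLF4 (1.50) rose, KLF4 with unequal channels at 60.9 and 8.10 CPM.

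Of 22 tested cell cycle genes, a list that the rule on MKI67 touches, 7 rose and 2 fell against other meningeal B cells. STMN1, a microtubule regulator of dividing and immature cells, rose by 2.53, and TOP2A, a topoisomerase, at 48.1 and 46.6 CPM against 12.3 and 9.77, by 1.74. CENPF, a centromere protein (-2.71), and the tubulin TUBA1B (-1.07) fell.

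Heat shock genes gave 2 rises (HSPA8 0.69, HSP90AA1 0.63) and 3 falls among 11, and 4 rises and 1 fall with library size alone. The shares of 18.2% and 27.3% were near the 18.2% and 23.5% of all genes tested. Of 6 tested germinal centre genes GCSAM and BCL6 rose, by 2.93 and 0.78, and LMO2 (-3.07), ELL3 (-1.67) and NUGGC fell, NUGGC on 1 UMI against 15.7 and 13.0 CPM.

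**Figure D3:**
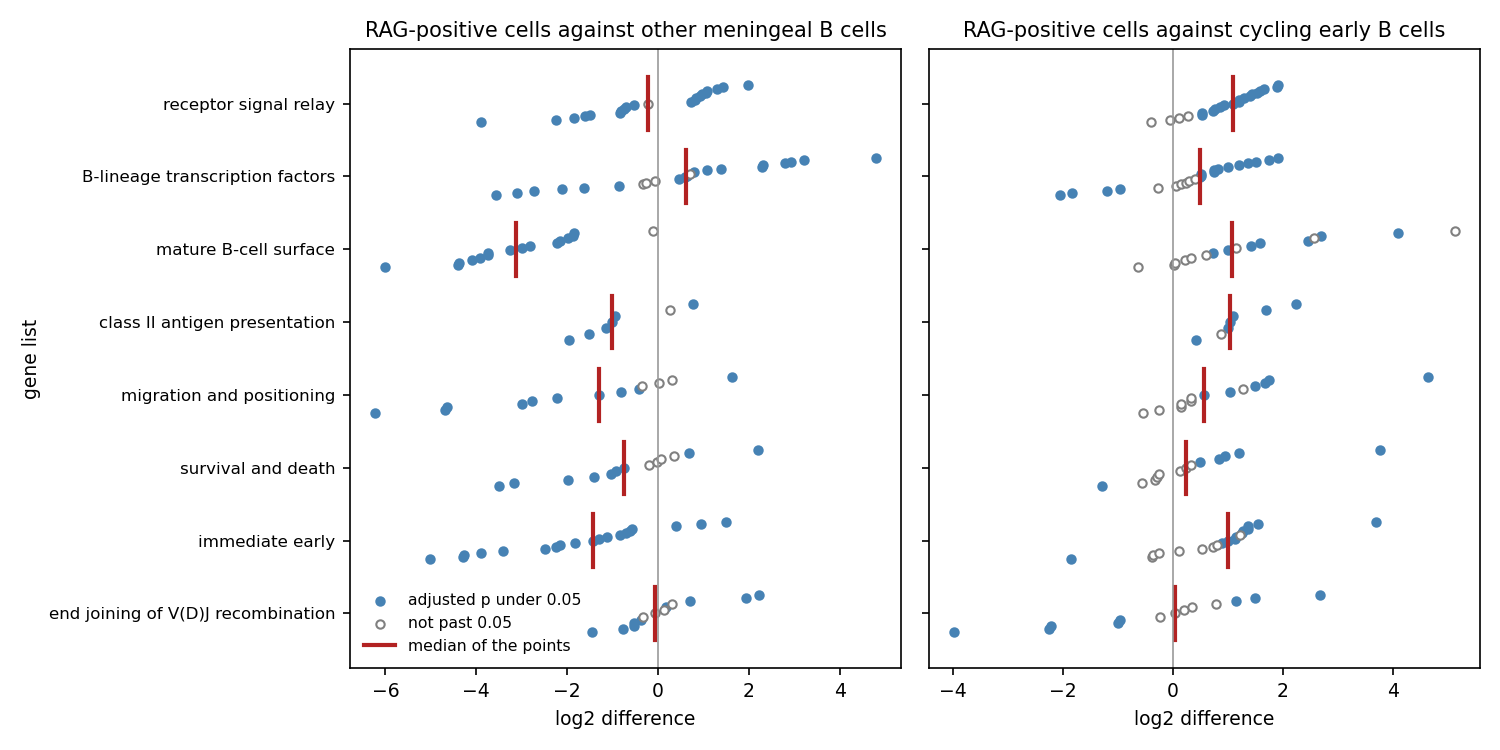
Fitted log2 differences on the x axis of the tested genes of 8 lists on the y axis, for RAG-positive cells against other meningeal B cells and against cycling early B cells; each point is a gene and each line the median of its list. Mature surface genes have a median of -3.13 in the first panel and 1.08 in the second.

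The second comparison was with cycling early B cells, the dividing stage that precedes small pre-B cells in textbook order. It used the same fit and the same sums of the RAG-positive cells, so the comparisons are not independent. Of 7470 genes 3325 passed (44.5%), 1587 higher (21.2%) and 1738 lower (23.3%), and 3830 without adjustment. Of the calls 47.7% were higher, or 60.1% with library size alone, where the median gene stood at 0.20 rather than 0.01. These classes differ in depth: between 2000 and 6000 UMIs only 9 and 7 cycling cells remained. There 207 of 6324 genes passed, 108 higher and 99 lower.

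The 22 tested cell cycle genes were all lower in the RAG-positive cells, which follows from the rule on MKI67. PCLAF, a PCNA-binding factor, had 0 UMIs against 378 and 346 CPM, at least 136-fold lower. STMN1 was at 907 and 891 CPM, below the 4727 and 4476 CPM of cycling cells and above the 127 and 121 CPM of other meningeal B cells. CDT1, a replication licensing factor, had 4 UMIs against 265 and 308 CPM (-6.49 ± 0.35), and the condensin subunit NCAPG also had 4 (-5.99). ASPM, RAD51AP1 and CLSPN, genes of spindle, repair and replication control, had ratios of 157 (43.4 to 1304), 102 (27.9 to 842) and 89.3 (30.3 to 435) on 2, 2 and 3 UMIs. PLBD1 and NEK6 were at least 3.91-fold lower, and both calls were lost between 2000 and 6000 UMIs (edgeR adjusted p = 1.0).

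Of the named rises, RASSF4 was at 625 and 666 CPM against 40.04 and 28.8 in cycling cells and rose by 3.99 ± 0.17 (edgeR adjusted p = 1.35e-15). FCER2, at 30.4 and 18.2 CPM against 2.16 and 0, rose with a ratio of 20.3 (5.11 to 176) on 2 UMIs in cycling cells, and BCL2A1, at 46.5 and 52.6 CPM against 1.08 and 5.76, rose by 3.77 ± 0.45. BCL2A1 rested on 55 UMIs in 7 and 8 RAG-positive cells, and the highest cell of each channel held 12. TYROBP, an adaptor of myeloid and NK receptors, was at 104 and 89.1 CPM against 2.16 and 13.0 and rose by 3.63 ± 0.38. FCER2, BCL2A1 and TYROBP did not pass between 2000 and 6000 UMIs, where few cycling cells remained: the fitted differences of FCER2 (7.42) and BCL2A1 (7.60) were not smaller there, while that of TYROBP was 0.93.

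CFD, IL1B and RGS16 passed on uneven channels. CFD, a complement protease of myeloid cells, was at 468 and 22.3 CPM with 128 UMIs in 1 cell, and its difference of 5.70 was 1.60 without channel 1 (edgeR adjusted p = 0.0665). IL1B, at 43.3 and 4.05 CPM against 1 UMI in cycling cells, had a ratio of 42.0 (6.96 to 1715). Its call was lost without channel 1 (edgeR adjusted p = 0.485) and without the block (edgeR adjusted p = 0.103). RGS16, at 4.81 and 36.4 CPM with 13 UMIs in 1 cell, had a ratio of 30.4 (4.89 to 1257), also against 1 UMI, and lost its call without channel 2 (edgeR adjusted p = 0.174). The 12 listed myeloid genes summed to 735 and 128 CPM in the RAG-positive cells and 28.1 and 37.4 CPM in cycling cells, and all 6 that were tested rose. C1QB, C1QC and S100A8 were at 0 in both channels of the RAG-positive cells, and the part of myeloid RNA in these results was not tested.

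The receptor's signal relay moved as a group: 17 of 21 genes rose and none fell against cycling cells, with a median of 1.09. Between 2000 and 6000 UMIs 3 rose and none fell, beside 108 higher and 99 lower of all 6324 genes tested there. SYK was at 182 and 183 CPM in cycling cells (rise of 1.40), PRKCB at 134 and 130 (1.59), and CD72, an inhibitory coreceptor, at 208 and 204 CPM against 619 and 674 in the RAG-positive cells (1.44). LYN, level with other meningeal B cells, rose by 1.30. CD79B was at 977 and 1004 CPM in cycling cells and rose by 1.36 ± 0.08.

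End joining genes split. POLM rose by 2.67, LIG4 by 1.50 and TP53BP1, which protects broken ends, by 1.16. HMGB2 fell by 3.98 (255 and 241 against 3691 and 3130 CPM), HMGB1 by 2.25, PRKDC by 2.21, XRCC6 by 0.99 and XRCC5 by 0.96. The count was 3 rises and 5 falls among 13.

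Of 23 transcription factors 12 rose and 5 fell. AFF3 rose by 1.91, BACH2 by 1.76, FOXO1 by 1.52, FOXP1 by 1.37 and PAX5 by 1.01. MEF2C, at 179 and 282 CPM in cycling cells, fell by 2.04, and BCL11A (-1.83) and ID3 (-1.19) fell too. ERG had 0 UMIs against 17.3 and 17.3 CPM. VPREB1, which chose the cycling cells, was at 381 and 340 CPM there and 272 and 281 in the RAG-positive cells.

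Mature surface genes gave 7 rises and no fall among 16 (median 1.08), with FCRL1 at 2.70, CD83 at 1.58 and CD69 at 1.42. Class II genes gave 6 rises among 7 (median 1.04), with CIITA at 2.24 and CD74, from 2799 and 2981 CPM, at 1.10. Between 2000 and 6000 UMIs 1 mature surface gene of 12 and 3 class II genes of 7 rose, and none fell. Of all 6324 genes tested there, 108 were higher and 99 lower. In migration 6 of 13 rose, among them RGS2 at 1.67 and CXCR4 at 0.58 ± 0.08. IL7R fell by 2.23, and CD38 and PTPRC rose by 0.60 and 0.69.

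In growth control BTG1 was at 772 and 690 CPM in cycling cells and rose by 2.22 ± 0.07, and BTG2 rose by 1.27. CCND3, the D-type cyclin of pre-B cells, was at 131 and 99.2 CPM against 399 and 406 and fell by 1.98, and CDKN2C fell by 2.23. In all 5 of 14 rose and 4 fell, or 9 and 3 with library size alone. Survival genes gave 5 rises and 1 fall among 13, immediate early genes 10 and 1 among 19, heat shock genes 4 and 3 among 11 and germinal centre genes 1 and 4 among 6.

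The third comparison was with the RAG-undetected ARPP21 VPREB3 cells, which share both markers and lack RAG UMIs. It had a fit of its own on 4 sums. Of 6605 genes 437 passed (6.62%), 140 higher (2.12%) and 297 lower (4.5%), and 1256 without adjustment. Of the calls 32.0% were higher, or 54.8% of 777 calls with library size alone. DESeq2 called 65 genes. When the RAG-undetected cells were limited to those with 0 MS4A1 UMIs, 124 and 116 cells, 105 of 5488 genes passed, 38 higher and 67 lower.

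APOD was at 303 and 362 CPM in the RAG-undetected cells, a difference of 2.32, and AKAP12 at 1809 and 1632 CPM, a difference of 0.94, both given without a test. ARPP21, which chose those cells, was at 1136 and 1053 CPM, and VPREB3 at 927 and 896. IGHM, at 6316 and 5935 CPM, differed by -0.03 and CD79B by 0.01 (edgeR adjusted p = 0.927). VPREB1 was at 203 and 171 CPM and did not pass (0.48 ± 0.13, edgeR adjusted p = 0.0661).

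DEPP1, at 1121 and 1224 CPM in the RAG-undetected cells, rose by 0.87 ± 0.05 (edgeR adjusted p = 8.55e-06). Among transcription factors 4 of 22 rose, MYB (1.09), TCF3 (0.82), SOX4 (0.77) and BACH2 (0.76), and 5 fell, with IRF8 by 2.04, ID3 by 1.97 and MEF2C by 1.86. In the signal relay 4 of 21 rose, with INPP5D at 0.80 and SYK at 0.55, and 5 fell, with BANK1 by 1.90 and SH3BP5 by 1.60. CXCR4 rose by 0.41 and GPR183 fell by 2.77. All these values are against the full RAG-undetected class, in which 99 and 115 cells carried MS4A1. No end joining gene of 12 passed.

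CD52, a small surface glycoprotein of lymphocytes, was at 309 and 326 CPM against 1111 and 953 and fell by 1.79 ± 0.09. EEF1B2, a translation factor, at 308 and 330 CPM against 732 and 826, fell by 1.38, and ACTB by 0.68. DUSP2 was at 16.02 and 58.7 CPM against 259 and 438 (-3.38). MAMU-DRB1 fell by 0.83 and CD74 by 0.48. MS4A1 was at 1249 and 1077 CPM in the RAG-undetected cells against 44.9 and 113.

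Several of these differences were smaller, or lost their calls, against the RAG-undetected cells with 0 MS4A1 UMIs. Mature surface genes gave 9 falls among 12 (median -1.69), but 0 falls among 9 (median -0.11) against RAG-undetected cells without MS4A1. Immediate early genes went from 9 falls and 1 rise among 18 to 0 falls and 2 rises among 13, and the signal relay from 4 rises and 5 falls to none among 21. Over all 5488 genes tested in that setting only 38 were higher and 67 lower, so counts of 0 in short lists say little. CD52 became -0.08 (edgeR adjusted p = 0.923), MAMU-DRB1 -0.15 (edgeR adjusted p = 0.376) and CD74 -0.05 (edgeR adjusted p = 0.698). That comparison rests on fewer cells, and a p that misses the threshold does not show that the classes are alike.

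**Figure D4:**
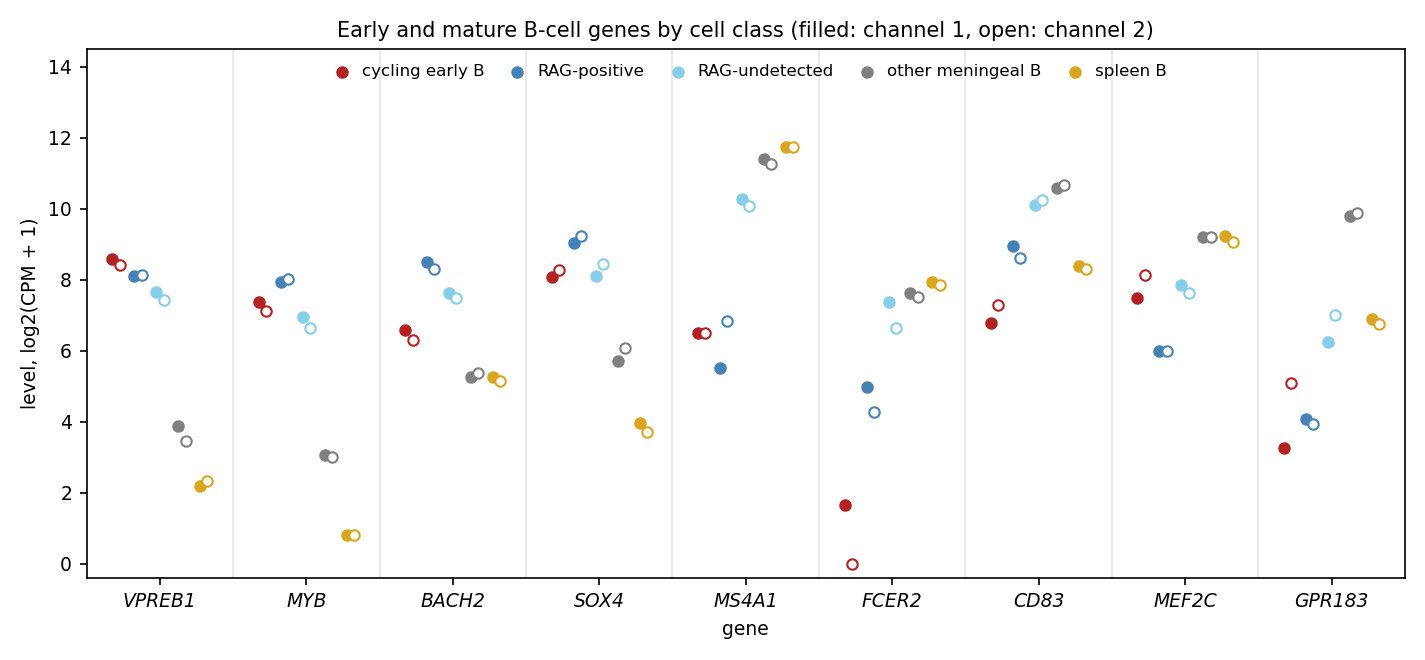
Levels of 9 genes, as log2(CPM + 1) on the y axis, in 5 cell classes on the x axis; filled points are channel 1 and open points channel 2. MYB, BACH2 and SOX4 are highest in the RAG-positive cells, VPREB1 is highest in cycling cells, and FCER2, CD83, MEF2C and GPR183 are lower in RAG-positive cells than in other meningeal B cells.

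Genes of other cell types were summed over fixed lists, and the values in parentheses are those of other meningeal B cells. The summed level of 8 listed T-cell genes was 135 and 121 CPM (206 and 210), with CD4 and CD5 at 0. TRAC gave 72.1 and 64.8 CPM of these sums. The highest T-cell gene of other meningeal B cells was CD3D at 56.4 CPM in channel 1 and TRAC at 58.8 in channel 2. Of 6 tested T-cell genes 4 fell against other meningeal B cells and none rose. Myeloid genes summed to 735 and 128 CPM (284 and 522), so channel 1 was above and channel 2 below. For 8 NK and cytotoxic genes it was 41.7 and 50.6 CPM (62.7 and 64.9), against 7581 and 7485 in NKG7-positive cells. Plasma-cell genes summed to 623 and 806 CPM (836 and 1233), of which DERL3 gave 242 and 304, with SDC1 and PRDM1 at 0. SDC1 was also at 0 in all the other meningeal classes. Of 6 tested plasma-cell genes 2 rose against other meningeal B cells, TNFRSF17 the most, and 3 fell. Stromal and vascular genes summed to 123 and 89.1 CPM (62.2 and 94.6). PECAM1 gave 103 and 79.0 of these, and the listed collagen genes, CLDN5 and VWF were at 0. Plasmacytoid dendritic genes summed to 386 and 429 CPM (229 and 235), of which TCF4, also a B-lineage gene, gave 338 and 389. CLEC4C was at 0 here and in all the other meningeal classes. Erythroid and platelet genes summed to 40.1 and 50.6 CPM (47.0 and 39.6). The part of RNA from other cells in the results was not tested. Scrublet, a doublet caller, marked 39 cells in each channel, 0.959% and 0.905%, with 1 RAG-positive cell in each.

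In the mouse library the same rule in mouse symbols took 3224 of 13933 cells, 23.1%. Rag1 was at 560 CPM (exact Poisson 95% interval 549 to 571), Akap12 at 517 (507 to 528), Vpreb3 at 3747 (3719 to 3776) and Ighm at 7475 (7435 to 7516). Arpp21 was at 5.93 (4.85 to 7.18) and Apod at 0.113 (0.0137 to 0.408), on 105 and 2 UMIs. The mouse values come from a single pooled library of 3 ages and another species, and were not tested against the macaque values.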

How the data were processed

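The deposited tables hold raw UMI counts per gene and barcode. The submitters' processing notes name Cell Ranger and, for all libraries, the build mm10. Which reference the macaque reads were aligned to is not stated.

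Cells with at least 300 genes were classed by the UMIs of the genes named in the text, doublets were kept, and UMIs were summed per channel and class (624088 and 493886 UMIs in the RAG-positive cells). Sums were tested with edgeR 4.0.16 and limma 3.58.1 in R 4.3.3: TMM scaling, filterByExpr, the quasi-likelihood test, and Benjamini-Hochberg adjustment over all genes tested, threshold 0.05. Classes of 1 channel share a library, so the channel was a block. The first 2 comparisons share 1 fit of 6 sums. DESeq2 1.42.0 was an alternative. The test was run on simulated counts with a single class profile, a set of changed genes and no channel effect. That setting is simpler than these data and does not measure the error rate here. Python 3.11.15, numpy 2.4.6, scipy 1.17.1, pandas 2.3.3 and scanpy 1.11.5 (with Scrublet) were used for the other steps. Bounds for genes at 0 use 3 UMIs over the group, and intervals are exact at 95%.

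The members, marker genes and gene lists were chosen with earlier results of these data known. Named genes are the 7 markers, the 16 largest rises and 12 largest falls against other meningeal B cells, the 8 largest of each against cycling cells (leaving out genes of the cell cycle list and histones, tubulins, kinesins, centromere and MCM proteins, though other division and replication genes remained), 10 by p against RAG-undetected cells, and the 12 of highest level; rises and falls needed a mean log2 CPM of at least 5, separate channels and a gene symbol. Examples from the lists were added. Promoter sequences were not used here. Alternatives changed the scaling, filter, test, block, channels, gene minimum, mitochondrial limit, doublets, immunoglobulin genes, RAG threshold, depth and comparison cells.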

Additional observations from a re-analysis of the deposited data

How the results depend on the processing

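Counts of genes past the threshold stayed within 1.5 times of the reported values under most alternatives. With the DESeq2 Wald test 1846 genes passed against other meningeal B cells, 2190 against cycling early B cells and 65 against RAG-undetected cells. Between 2000 and 6000 UMIs 207 passed against cycling cells and 674 against RAG-undetected cells. Against RAG-undetected cells 105 passed with MS4A1 at 0 and 777 with library size alone. Without the RAG-positive sum of either channel 2360 to 2538, 2554 to 2919 and 412 to 477 genes passed, where the lone remaining sum is assumed to vary like the others. The last range comes from fits on class alone, since the block left no residual degrees of freedom. Without the replicate block 3136, 3311 and 455 genes passed, and the block changed no named call but those of IL1B and HMGB1. The share of RAG-positive cells was 2.40% with 2 or more RAG UMIs and 3.50% when a RAG1 UMI was required, with or without RAG2. It was 2.73% after thinning to 1000 UMIs, and 3.83% to 4.84% in the channels singly. Of 78 gene results, 60 kept direction and side of the threshold under all alternatives run. Of 1262 alternative values 34 lost the call, 2 gained it (EBF1), and 1 turned: IL7R against FCER2-positive B cells, at 1.68. Limiting the RAG-undetected cells to MS4A1 at 0, the fits on class alone and library size alone were chosen after seeing the data. The cause of these shifts was not tested, except that the depth window leaves few cycling cells. Depth limits genes with 0 to 3 UMIs in either group, for which the fitted size is not reliable.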
